A study of Zea mays with 12 samples.

Results

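The stretches of the maize genome to which a replication timing map gave no class are described here. They were chosen by the segmentation itself: a gap is any interval of the 10 chromosomes that lies between position 1 and the end of the last segment and is covered by no segment. There were 965 such gaps beside 20613 segments, and they held 36.54 Mb, or 1.71% of 2131.81 Mb. Their number, length, position and flanking classes follow from that choice and are given as description, with no test. Genes annotated in them were not used in the choice.

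The map came from Repli-seq of root tips of the maize inbred line B73. Seedlings grown for 3 days at 28 C took up 25 µM EdU, a thymidine analogue that enters replicating DNA, for 20 min, followed by 100 µM thymidine. Nuclei from the last 1 mm of the root were then sorted into early S, mid S, late S and G1, giving 4 groups of 3 biological replicates. EdU-labelled DNA was immunoprecipitated from the S-phase nuclei, and G1 DNA without immunoprecipitation was the reference, so all 12 libraries came from labelled seedlings of 1 genotype. The values available were 1 segmentation in windows of 10 kb, with no value per library, so the depth is unknown and no replicate error can be given. Each SD below is over the 10 chromosomes. Chromosomes of a single genome are no replicates of plants, so a p-value here speaks only of how chromosomes vary. Coordinates are those of the deposited segmentation, for which the sources used here name no build.

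Nuclear DNA is copied in a set order during S phase. In plants, gene-rich euchromatin is known to replicate mainly early, and repeat-rich heterochromatin late. A timing map assigns each window to the stage in which its DNA was most enriched among newly made DNA: ES, MS and LS are taken to stand for early, mid and late S, and ESMS and MSLS for mixed classes between neighbouring stages. Ribosomal RNA (rRNA) genes, which supply the RNA core of the ribosome, lie in tandem arrays of near-identical copies. The sources used here do not state how reads with several possible places were treated or by what rule a window was left without a class, and no cause of any gap was tested.

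Most gaps were short, and a few long ones held much of the sequence. The median length was 20 kb, with quartiles of 10 and 40 kb, and 362 gaps (37.5%) were a single window of 10 kb. A further 202 were 20 kb long and 113 were 30 kb long. The single-window gaps made up 9.91% of the gap sequence, whereas the 58 gaps of 100 kb or more made up 34.9%, or 12.75 Mb. The smallest gap the map can show is 1 window, so shorter stretches are not seen.

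The longest gap, 910 kb on chromosome 9 (77170001 to 78080000), lay between an ES segment of only 10 kb and an LS segment of 30 kb. It held 22 protein-coding genes, 7 transfer RNA (tRNA) genes and 3 pseudogenes. The next, 700 kb on chromosome 6 (16700001 to 17400000), had LS on both sides and held 185 rRNA genes and 2 protein-coding genes. A gap of 550 kb near the far end of the same chromosome (165570001 to 166120000) lay between ESMS and an ES segment of 1160 kb and held 14 protein-coding genes. Gaps of 480 kb lay on chromosome 2 (157070001 to 157550000, between LS and ES) and on chromosome 7 (121770001 to 122250000, between MS and MSLS), with 7 and 5 protein-coding genes. Gaps of 360 kb lay on chromosome 4 (2150001 to 2510000, between MS and LS) and chromosome 5 (123460001 to 123820000, within LS). The remaining 3 of the 10 longest were 300 kb on chromosome 2 (8080001 to 8380000), 300 kb on chromosome 6 (97900001 to 98200000) and 290 kb on chromosome 3 (47000001 to 47290000). These 10 held 12.9% of all gap sequence, and chromosome 6 carried 3 of them.

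Gaps occurred on every chromosome, at a similar rate except on chromosome 5, but covered unequal shares. They numbered 0.455 per Mb ± 0.0487 and covered 1.75% ± 0.588 of a chromosome (SD, n = 10). Chromosome 6 was highest on both measures, with 95 gaps, 0.524 per Mb and 3.18% of its length, and 12 of its gaps were 100 kb or longer. The other 9 chromosomes ranged from 1.06% on chromosome 8 to 2.11% on chromosome 9. Chromosome 5 had the lowest rate, 75 gaps or 0.331 per Mb, and chromosome 8 had only 1 gap of 100 kb or more. The median gap was 20 kb on all 10 chromosomes.

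**Figure D1:**
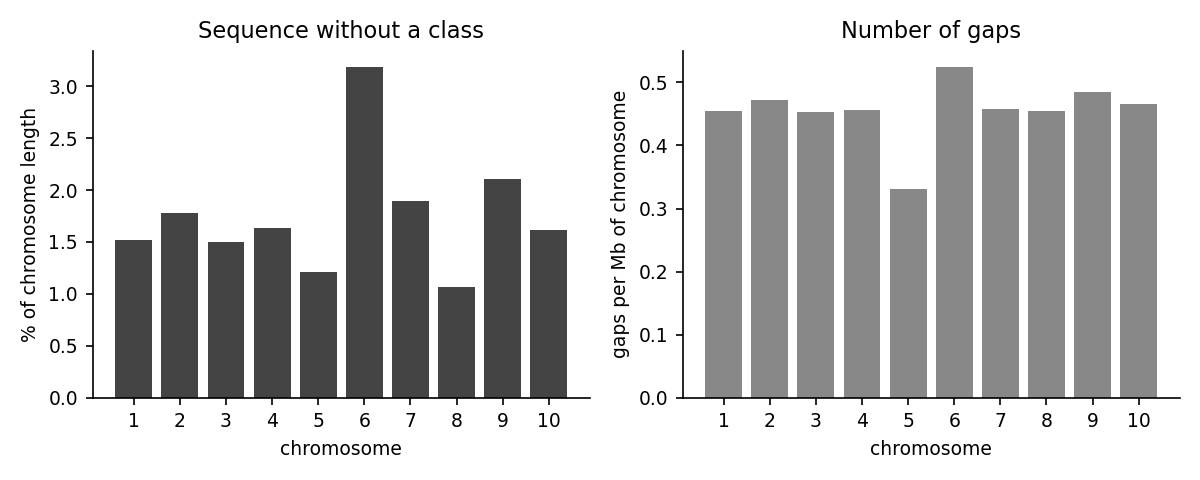
The left panel plots the share of each chromosome's length without a timing class (%), and the right panel the number of gaps per Mb, each bar being 1 chromosome. Chromosome 6 stands highest in both, at 3.18% and 0.524 per Mb, and chromosome 5 is lowest in number at 0.331 per Mb.

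Gaps occurred along every chromosome, but in places they were packed. Between 10% and 15% of the length of chromosome 6 there were 1.77 gaps per Mb, covering 15.5% of that sequence. Between 30% and 35% of the length of chromosome 7 there were 0.969 per Mb, covering 10.4%. Gaps also followed one another closely on chromosome 1 (137040001 to 138050000) and chromosome 3 (165260001 to 167830000). From one gap to the next on the same chromosome the median distance was 1.35 Mb over 955 pairs. In 35 pairs the next gap followed within 50 kb, and the longest stretch free of gaps was 22.86 Mb, on chromosome 2 from 124650001 to 147510000. Gaps on both sides enclosed 124 segments, of 95 kb at the median: 45 LS, 41 ES, 35 MS, 3 MSLS and no ESMS segments. Of the gaps, 3 began at position 1 of a chromosome: 240 kb on chromosome 6, ahead of a 5150 kb LS segment, 90 kb on chromosome 9, ahead of a 1840 kb LS segment, and 20 kb on chromosome 1, ahead of MS. No protein-coding gene lay in those 3.

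Gaps were more frequent in the outer 20% at each chromosome end than in the middle 60%, with no steady rise towards the ends. In the outer 20% at each end there were 0.536 gaps per Mb ± 0.0825, against 0.401 ± 0.0588 in the middle 60% (SD, n = 10), and all 10 chromosomes had the higher rate at their ends, although on chromosome 6 both rates were 0.524. With the outer 10% taken as the ends, 9 of 10 had the higher rate there, and chromosome 6 had 0.386 per Mb at its ends and 0.558 in the rest. The covered share was 2.23% ± 1.09 at the ends and 1.43% ± 0.540 in the middle, higher at the ends on 8 of 10. By bins of 5% of chromosome length, the rate was highest in the first bin at 0.675 per Mb ± 0.360 and lowest between 55% and 60% at 0.283 ± 0.206. Between 60% and 85% it stayed between 0.507 and 0.650 per Mb, and between 5% and 20% it was 0.435 to 0.508 per Mb. Position is part of the choice, so these values carry no test.

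**Figure D2:**
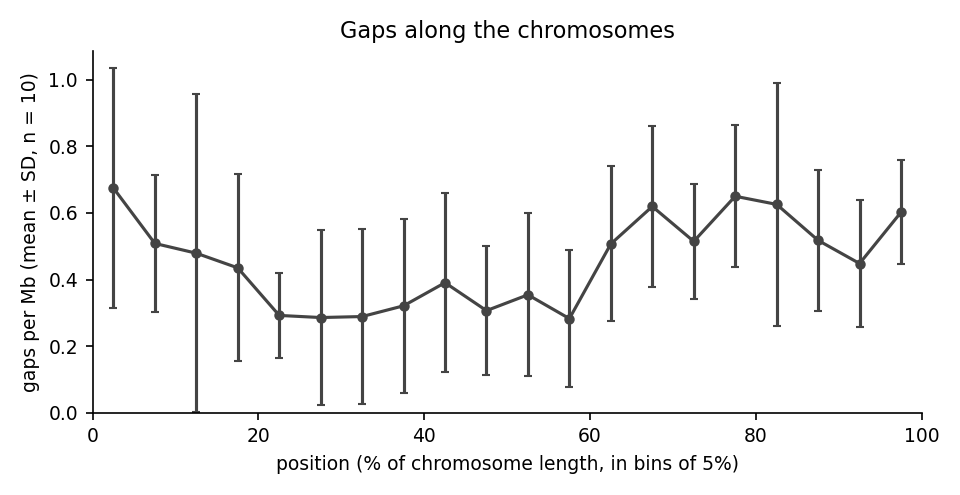
Gaps per Mb (vertical axis) are plotted against position along the chromosome in bins of 5% of its length (horizontal axis). Points are means and bars SDs over the 10 chromosomes. The rate is 0.675 per Mb in the first bin, 0.283 between 55% and 60%, and 0.602 in the last bin.

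The classes on the 2 sides of a gap were mostly ES, MS or LS, and seldom a mixed class. Of 962 gaps with a class on both sides, 80 (8.32%) had a mixed class on at least 1 side, from 1.33% on chromosome 5 to 12.9% on chromosome 7. Among the 19624 boundaries at which segments of the 5 classes touch, 96.8% had one. A few segments of the map carried none of the 5 class labels. They bordered no gap and are left out of the counts by class. Counted by segment, 10.2% of the ends of ES segments lay at a gap, 8.43% of LS ends and 7.27% of MS ends, but 0.400% of ESMS ends and 0.545% of MSLS ends. Per Mb of their own sequence, MS had 1.24 gap ends, ES 1.11, LS 0.761, ESMS 0.254 and MSLS 0.201. Both counts placed the mixed classes lowest.

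More than any other arrangement, a gap stood where the class changed from a pure stage to the next pure stage. Across 535 gaps (55.6%) the class changed by 2 steps (ES, ESMS, MS, MSLS and LS being the order), and 422 of these lay between ES and MS and 113 between MS and LS. Across 345 (35.9%) the class was the same on both sides, as MS in 145, ES in 97, LS in 96 and a mixed class in 7. A single step was found across 71 gaps (7.38%), against 96.7% of touching boundaries. Touching neighbours cannot share a class, so their share of 0 at no step is fixed by construction. The 2-step share was 55.8% ± 3.82 over the chromosomes, from 51.3% to 64.8% (SD, n = 10). The change ran from ES to MS with rising coordinate in 223 gaps and from MS to ES in 199.

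Where ES and MS, or MS and LS, followed each other in the map with no mixed segment listed between them, a gap was often there. A gap may cover mixed windows that the map cannot show, so these places need not all be direct changes. The shares also leave out changes through a mixed segment. ES touched ESMS at 5098 boundaries, and LS touched MSLS at 3510. For ES and MS there were 1026 such places, 422 at a gap and 604 with touching segments, so 41.1% held a gap. For MS and LS there were 144, 113 at a gap and 31 touching, or 78.5%.

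**Figure D3:**
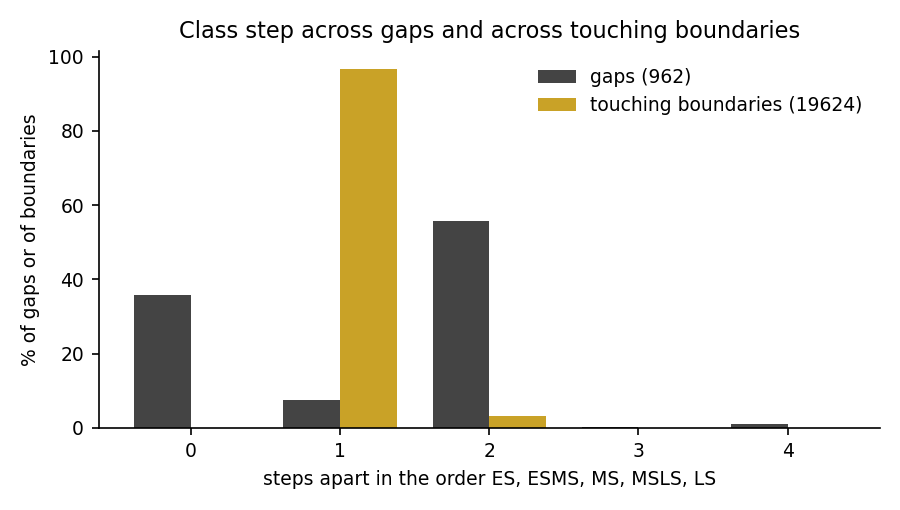
Bars give the share (%) of gaps (dark) and of touching boundaries (yellow) by how many steps apart the classes on the 2 sides are, counting ES, ESMS, MS, MSLS and LS as successive steps. Gaps peak at 2 steps (55.6%) and 0 steps (35.9%), and touching boundaries at 1 step (96.7%).

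Larger jumps across a gap were few, at 11. ES met LS across 9 gaps of 10 to 910 kb, 5 of them 100 kb or longer. Besides the 910 kb and 480 kb gaps above, they were on chromosome 2 (196510001 to 196700000), chromosome 3 (105380001 to 105390000), chromosome 4 (3140001 to 3200000), chromosome 5 (180001 to 290000), chromosome 7 (87080001 to 87170000 and 94970001 to 95070000) and chromosome 8 (49150001 to 49160000). Touching segments made that change only once in the genome. The LS or ES segment beside these gaps was often small: in 7 of the 9 it was 20 kb or less on at least 1 side. ES met MSLS across a gap of 10 kb on chromosome 1 (141690001 to 141700000) and across 20 kb on chromosome 4 (128860001 to 128880000).

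Gaps inside late sequence were the longest common kind, and those between ES and MS the shortest. The median was 45 kb for the 96 gaps with LS on both sides, 30 kb for the 97 within ES, 20 kb for the 145 within MS and the 113 between MS and LS, and 15 kb for the 422 between ES and MS. Single windows made up 12.5% of the gaps within LS and 50% of those between ES and MS. By chromosome medians the gaps within LS were longer than those between ES and MS on 9 of 10 chromosomes, chromosome 10 being the exception. Of the gaps within LS, 14 held rRNA genes, all on chromosome 6, and the other 82 had a median of 40 kb. Of single-window gaps 71.5% bridged 2 steps, and of gaps of 100 kb or more 31.6% did and 49.1% had the same class on both sides.

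**Figure D4:**
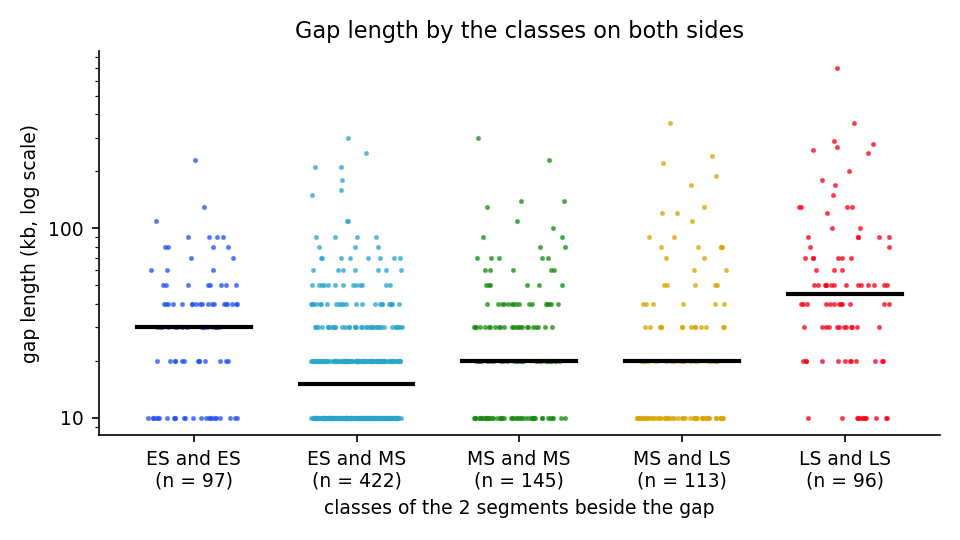
Each point is a gap, with its length in kb on a log scale, grouped by the classes of the 2 segments beside it, and black lines mark medians. The medians are 30 kb within ES, 15 kb between ES and MS, 20 kb within MS and between MS and LS, and 45 kb within LS.

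The kinds of gap also differed in place. Of the gaps within ES 74.2% lay in the outer 20% of a chromosome, of those between ES and MS 55.9%, within LS 36.5%, within MS 33.1% and between MS and LS 25.7%. Segments that touched a gap were shorter than the others among LS (medians of 60 and 130 kb) and MS (70 and 90 kb), but longer among ES (120 and 110 kb), ESMS (40 and 20 kb) and MSLS (50 and 40 kb).

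Counted by midpoint, protein-coding genes were rarer in gaps than in the sequence right beside them. No difference from the classified genome as a whole was detected. The gaps held 535, taking each gene at its midpoint, or 14.6 per Mb ± 3.63, against 15.8 ± 0.981 in classified sequence of the same chromosomes (SD, n = 10). The difference of -1.13 genes per Mb ± 3.67 was positive on 5 chromosomes and negative on 5 (exact two-sided sign-flip permutation over 10 chromosomes, p = 0.359, adjusted over 5 tests by Benjamini-Hochberg 0.599). Classified sequence within 50 kb of a gap had 18.7 per Mb ± 2.09, and gaps were lower by 4.11 genes per Mb ± 2.65, on 10 of 10 chromosomes. That difference passed (exact sign-flip p = 0.00195, the smallest that 1024 sign patterns allow, adjusted p = 0.00977). It was smallest on chromosome 1 (17.4 in gaps and 17.7 beside them) and largest on chromosome 8 (9.28 and 17.1), followed by chromosome 6 (10.1 and 17.9). The call was lost when single-window gaps were left out (-3.60 per Mb, exact sign-flip adjusted p = 0.0537). It was also lost when a gene counted in a gap by any overlap (-1.54 per Mb, exact sign-flip adjusted p = 0.447), which also counts genes that cross a gap's edge. Protein-coding gene bodies covered 9.07% ± 3.73 of gaps and 10.4% ± 1.68 of the sequence within 50 kb (SD, n = 10). That cover was higher in gaps on 3 chromosomes, and it was not tested.

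**Figure D5:**
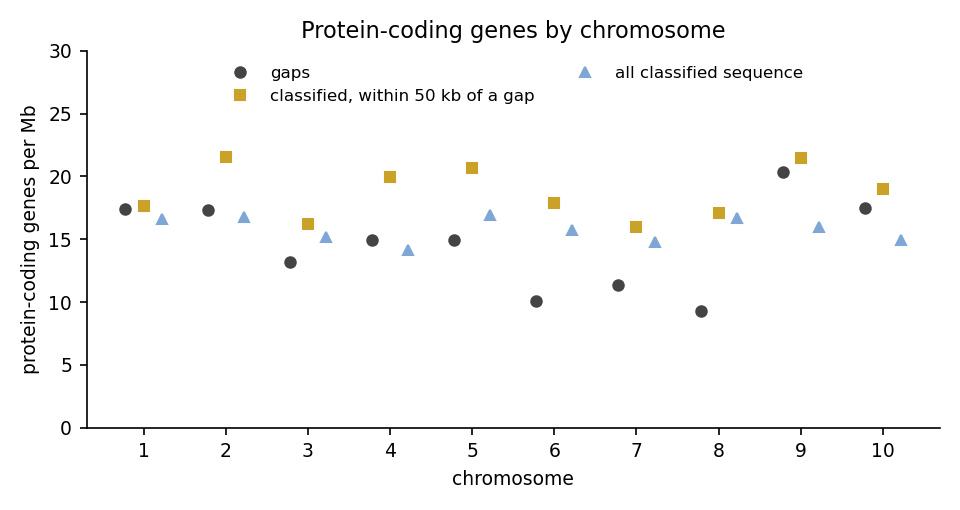
Protein-coding genes per Mb are plotted by chromosome for gaps (circles), classified sequence within 50 kb of a gap (squares) and all classified sequence (triangles). On all 10 chromosomes the circle is below the square, while 5 circles are above and 5 below the triangle.

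Genes were unevenly divided among the gaps. No protein-coding gene had its midpoint in 725 gaps (75.1%), and no protein-coding gene body reached into 672. At the other end, 24 gaps with 5 or more genes held 171 of the 535. Gap length bears on these counts, since a short gap has little room for a gene. No share was computed for classified intervals of the same lengths. Single-window gaps had 9.12 genes per Mb, gaps of 20 to 90 kb 17.4 and gaps of 100 kb or more 11.9. Gaps within ES had 25.3 genes per Mb, within MS 23.0, between ES and MS 17.4, between MS and LS 7.23 and within LS 3.97. These compare with 31.1 per Mb in ES, 11.6 in MS and 3.75 in LS segments. Gaps within MS thus held more genes per Mb than MS sequence, at 22.01 ± 8.57 against 11.6 ± 0.559 (SD, n = 10), on 9 of 10 chromosomes. Gaps within ES were above ES sequence on 3 of 10. Of the gaps within MS 6 had 5 or more genes, and the others had 17.8 per Mb. These comparisons by flanking class were added after the values were seen and carry no test.

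Pseudogenes and long noncoding RNA genes did not differ detectably between gaps and the sequence beside them. Pseudogenes stood at 3.39 per Mb ± 1.32 in gaps and 3.15 ± 1.03 within 50 kb of a gap, a difference of 0.242 ± 1.52, higher on 6 of 10 chromosomes (exact sign-flip p = 0.652, adjusted 0.652). Long noncoding RNA genes stood at 3.37 per Mb ± 1.79 and 2.88 ± 0.521, a difference of 0.496 ± 2.11, higher on 5 of 10 (exact sign-flip p = 0.502, adjusted 0.627). Protein-coding genes in gaps had a median length of 2519 bp ± 627, against 3132 bp ± 338 within 50 kb, a difference of -613 bp ± 827 (SD, n = 10). It was lower on 7 of 10 chromosomes (p = 0.0488 by exact sign-flip permutation, adjusted 0.122), which did not pass adjustment. Of the runs that left out a chromosome, only that without chromosome 9 passed (-790 bp, exact sign-flip adjusted p = 0.0391). On chromosome 9 the median was higher in gaps (3632 and 2651 bp). With genes counted by any overlap the difference was -165 bp, and the median was higher in gaps on 6 of 10 chromosomes (exact sign-flip adjusted p = 0.578).

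Genes of equal length close together, as copies in tandem can have, were more frequent in gaps than beside them. Of the 535 protein-coding genes in gaps, 38 (7.10%) had another protein-coding gene of exactly the same length within 100 kb, against 14 of 1738 (0.806%) in classified sequence within 50 kb of a gap and 100 of 33146 (0.302%) in all classified sequence. By chromosome the shares were 6.15% ± 4.60 in gaps and 0.769% ± 0.843 beside them (SD, n = 10), higher in gaps on 8 of 10. On chromosomes 8 and 10 no such gene was found in a gap or beside one. With lengths allowed to differ by 10 bp they were 12.5%, 2.53% and 2.07%, and higher in gaps than beside them on 9 of 10. Equal length does not show equal sequence. This measure was chosen after the gene content of some gaps had been seen, and no test was run.

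The 38 genes lay in 16 gaps on 8 chromosomes. The gap with most of them was only 40 kb long, on chromosome 3 (212360001 to 212400000), between ES segments of 430 and 460 kb. It held 9 protein-coding genes, 225 per Mb, and 6 of them had an equal, among them 3 of 453 bp and 2 of 1322 bp. On chromosome 1 a gap of 210 kb between MS and ES (234420001 to 234630000) held 10, of which 5 were 970 bp and 3 others 2968, 2970 and 2972 bp. The 2 gaps with most genes had none of the 38. In the 550 kb gap of chromosome 6 the longest of the 14 genes were 35663 and 35648 bp. In the 910 kb gap of chromosome 9 the 22 genes ran from 696 to 39998 bp, and its 2 genes of 3030 bp lay more than 100 kb apart.

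The gap that holds p1 was among the 5 with most protein-coding genes. p1 (RefSeq symbol P) encodes the MYB factor that switches on red phlobaphene pigment in the pericarp and cob, and the allele of B73, P1-wr, is known as a tandem array of copies. Its gap spanned 140 kb on chromosome 1 (47920001 to 48060000), inside MS sequence, with MS segments of 50 and 90 kb beside it. It held 9 protein-coding genes, p1 at 8212 bp and 8 others of 5501 to 9494 bp, or 64.3 per Mb, and no 2 had the same length.

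Ribosomal RNA genes were the most extreme content. Gaps held 672 of the 884 on the chromosomes, 18.4 per Mb against 0.101 per Mb of classified sequence, in 17 gaps on 3 chromosomes. A further 1555 rRNA genes of the annotation lie on no chromosome and were not used here. In maize the 5S rRNA genes are known to form an array on the long arm of chromosome 2, and the genes of the large precursor (18S, 5.8S and 26S) an array at the nucleolus organizer on the short arm of chromosome 6.

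On chromosome 2 a gap of 60 kb (227620001 to 227680000) held 172 rRNA genes, 2.87 per kb, and 167 of them were 119 bp long. It sat between ES segments of 60 and 160 kb, and all 37 classified rRNA genes of the chromosome lay in ES within 50 kb of the gap. The annotated array thus continued into ES sequence.

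On chromosome 6 the array was interrupted. From 16700001 to 23580000 (6.88 Mb) there were 20 gaps, which together took 35.2% of that stretch, and 15 of them held rRNA genes. The 15 ranged from 40 to 700 kb, and 14 had LS on both sides, the exception being 220 kb between MS and LS (20980001 to 21200000, 40 rRNA genes). Within the stretch the gaps held 497 rRNA genes, 205 per Mb, and the segments 146, 32.7 per Mb. All classified rRNA genes of the chromosome lay in LS. The 32.7 per Mb therefore also counts segments of the other classes, which held none, and understates the density within LS. The lengths found in gaps recurred in the LS segments of the chromosome: 167 genes of 156 bp in gaps and 68 in LS, 140 and 45 of 1811 bp, and 107 and 28 of 3383 bp. LS made up only 33.9% of the classified sequence there, in 15 of 50 segments, with 14 ESMS, 11 MS, 8 ES and 2 MSLS among the others. After the 700 kb gap with 185, the highest counts were 45 in 260 kb (22660001 to 22920000), 41 in 200 kb (17570001 to 17770000) and the 40 in 220 kb given above, followed by 33 in 130 kb (22320001 to 22450000). A gap of 130 kb (21500001 to 21630000) had 29, and those of 90 kb (21370001 to 21460000 and 23490001 to 23580000) had 22 each. Gaps of 80 kb had 16 (22490001 to 22570000) and 13 (21840001 to 21920000), and gaps of 50 kb had 14 (22170001 to 22220000) and 12 (17460001 to 17510000). Outside the stretch, gaps covered 1.92% of chromosome 6, within the range of the other chromosomes. The stretch was drawn from the first to the last gap with rRNA genes, so leaving it out had to lower the share. Chromosome 6 had 670 rRNA genes in all, and some lay in LS outside the stretch. The other gap with rRNA genes, 20 kb within MS on chromosome 10 (34700001 to 34720000), had 3, 1 each of 156, 1811 and 3383 bp.

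Transfer RNA genes were also dense in gaps, through a few clusters. The gaps held 50 of 914, or 1.37 per Mb against 0.412 per Mb of classified sequence, a ratio of 3.32, in 16 gaps. Of the 50, 34 lay in 4 gaps. A gap of 50 kb within LS on chromosome 1 (208520001 to 208570000) had 11, of 6 kinds. A gap of 80 kb within ES on chromosome 5 (218310001 to 218390000) had 9, of 8 kinds. The 910 kb gap of chromosome 9 had 7, of 6 kinds. In contrast, a single-window gap between ES and MS on chromosome 2 (220040001 to 220050000) had 7 genes of 1 kind, the isoleucine tRNA with anticodon AAU.

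Small RNA genes of other kinds were few. Small nucleolar RNA genes, which guide rRNA modification, stood at 0.274 per Mb in gaps (10 genes) and 0.302 in classified sequence. The 3 small nuclear RNA genes found in gaps, parts of the splicing machinery, were all in 1 gap. It was 40 kb long, between ES and MS on chromosome 2 (38590001 to 38630000). Genes of this kind stood at 0.0821 per Mb in gaps and 0.114 in classified sequence. The only microRNA gene in a gap was MIR390a, whose product triggers the small RNAs that act on auxin response factors. It lay in a gap of 150 kb between ES and MS on chromosome 1 (299450001 to 299600000). MicroRNA genes stood at 0.0274 per Mb in gaps and 0.0778 in classified sequence.

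Some protein-coding genes in gaps carry a name. The share with a name was not computed for classified sequence, so the counts here show nothing particular to gaps. Of the 535, only p1, IPP, sfp5 and sbp4, an SBP-box gene, have a symbol that is not a locus number, and 531 do not. The last 3 lay in gaps of 20 to 30 kb between ES and MS: IPP on chromosome 2 (26050001 to 26070000), sfp5 on chromosome 9 (22160001 to 22190000) and sbp4 on the same chromosome (111760001 to 111780000). A further 26 were recognised by a synonym. Of these, rtcs was included because earlier results of these data placed it in a gap, and the others were picked after the list of gap genes had been seen, so they are examples and not a sample.

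Among them were genes of plant development. rtcs, a LOB-domain factor that seminal and crown roots need to form, shared a gap of 50 kb between MS and ES on chromosome 1 (10870001 to 10920000) with LOB21, a second gene of that family; the genes were 1240 and 1188 bp long. The outer cell layer homeobox genes ocl1 and ocl3 lay in gaps of 30 kb within LS on chromosome 3 (27660001 to 27690000) and 20 kb between ES and MS on chromosome 7 (147870001 to 147890000). The homeobox gene HB34 and the YABBY gene YAB6 lay in gaps within MS, of 60 kb on chromosome 2 and 80 kb on chromosome 5. The MADS-box gene ZAGL1 lay in 40 kb between ES and ESMS on chromosome 1.

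Other synonyms named genes of defence and metabolism. igl1, which frees indole as a volatile signal, shared a gap of 230 kb within ES on chromosome 1 (295040001 to 295270000) with a gene of the synonym Igl and with ohp1, a bZIP partner of the zein regulator opaque2. Of the benzoxazinoid pathway, which makes defence compounds of young maize, bx6 (a dioxygenase) lay in the 360 kb gap near the start of chromosome 4, and BX5 (a cytochrome P450) in 90 kb within ES (3940001 to 4030000). The polygalacturonase gene pgl1 lay in 270 kb within LS on chromosome 6 (109370001 to 109640000), and the auxin-binding protein gene abp4 in 230 kb within MS on chromosome 10 (26990001 to 27220000). Yucca3, of the auxin synthesis family, lay in 70 kb between MS and MSLS on chromosome 4, and fad2, an oleate desaturase gene, in 50 kb between ES and ESMS on the same chromosome.

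The remaining named genes were in gaps of 10 to 70 kb. Between ES and MS lay the chorismate mutase gene ZmCM1 (10 kb, chromosome 3), EREB121 (10 kb, chromosome 7), the phosphatase gene PP2C30 (30 kb, chromosome 5), bHLH115 (50 kb, chromosome 1), the ABC transporter gene ZmMRP2 (60 kb, chromosome 7) and CFM2, of chloroplast intron splicing (70 kb, chromosome 10). The 11204 bp of EREB121 are longer than its gap. Within MS lay the SET-domain gene sdg110 (30 kb, chromosome 7), whose 43774 bp are also longer than its gap, and LIM4 (60 kb, chromosome 10). The tocopherol cyclase gene sxd1 (20 kb, chromosome 5) lay between MS and MSLS and bHLH123 (40 kb, chromosome 6) within ES.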

How the data were processed

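The series holds 12 libraries in 4 groups of 3. The deposited file holds the start, end and timing class of each segment, with no library columns, and its segment starts lie on a grid of 10 kb. Trimmomatic 0.39, Bowtie2 2.5.1 and SAMtools 1.9 are named in the submitters' processing notes. No source used here gives the segmentation rule, the treatment of reads with many placements, any pooling of replicates or the build, and depth is unknown.

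Gaps were computed as the uncovered intervals. Genes came from the RefSeq table of Zm-B73-REFERENCE-NAM-5.0 (47019 on the chromosomes), placed by midpoint. The match of coordinates was checked: shifting the genes against the ES windows, the best match lay at an offset of 10 kb or less on all 10 chromosomes, and no gene lay past the last segment. No gene coordinate is printed. For differences, signs were flipped over chromosomes in an exact two-sided permutation test (tested on simulated data), adjusted over 5 tests by Benjamini-Hochberg. The members and lists were chosen with earlier results of these data known. Named were the 10 longest gaps, the 5 with most protein-coding genes, those with 10 or more rRNA genes, those 3 or more steps apart, those at position 1, genes with symbols, and p1 and rtcs, which earlier results placed in gaps. Other genes found by synonym, gaps with tRNA or small RNA clusters, equal gene lengths and gene densities by flanking class were chosen after values were seen. Tools were scipy 1.17.1, numpy 2.4.6, matplotlib 3.10.9, Python 3.11.15 and pandas 2.3.3.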

Additional observations from a re-analysis of the deposited data

Results flagged for a closer look

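Over the 10 chromosomes, 9 quantities were screened for a chromosome far from the others, a screen by which chance picks out about 1 in 20 groups. The quantities flagged below follow from the choice of the gaps, so they are given as description and not as a test. Chromosome 6 stood apart in the share of its length in gaps, 3.18% against 2.11% on the next chromosome. That share was 1.92% outside the stretch with rRNA genes, whose edges are gaps, so leaving it out had to lower the share. The cause of the higher share was not tested. Chromosome 5 stood apart at the low end in the number of gaps, 0.331 per Mb against 0.454 on the next.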

How the results depend on the processing

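No paired analysis was possible because the segmentation has no value per library, and leaving out a replicate was not possible for the same reason. Chromosomes were left out instead. The deficit of protein-coding genes against sequence within 50 kb kept its direction under every alternative run and passed with flanks of 20 kb and 100 kb and without each chromosome in turn (-4.54 to -3.69 per Mb). It did not pass with gaps of 20 kb or more (-3.60) or with any overlap (-1.54). Against all classified sequence, any overlap turned the difference to 1.32 per Mb, and neither value passed. The pseudogene difference turned to -0.371 per Mb with flanks of 20 kb and ranged from -0.112 (without chromosome 8) to 0.454 without each chromosome, and that of long noncoding RNA genes from -0.000321 (without chromosome 10) to 0.720, none passing. The gene length difference ranged from -790 to -509 bp without each chromosome and passed only without chromosome 9. With any overlap it was -165 bp. With gaps of 20 kb or more, the share with the same class on both sides was 42.8%, that 2 steps apart 46.0% and that with a mixed class 10.8%, since this leaves out the 362 single-window gaps. Joining gaps across a segment of 10 kb left 961 gaps and 36.58 Mb. Taking the outer 10% as the ends kept the higher mean rate there, by 0.129 per Mb, on 9 of 10 chromosomes, with chromosome 6 turned round, and the higher covered share on 7 of 10. The added tolerance of 10 bp on equal gene lengths, chosen after seeing the data, kept the higher share in gaps.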

Other observations

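In 3 of the 4 gaps with 5 or more tRNA genes, the order of the tRNAs can be set beside that of the organelle genomes in the same gene table, by amino acid alone. In the gap of chromosome 1, 3 of 10 neighbouring pairs of unlike tRNAs are also neighbours among the 38 plastid tRNA genes and 0 among the 21 mitochondrial ones. In that of chromosome 5 the counts were 3 and 0 of 7, and in the 910 kb gap of chromosome 9 they were 1 and 2 of 6. A tryptophan tRNA with anticodon CCA stood next to a proline tRNA with anticodon UGG in all 3 of these gaps, a pair found once in the plastid order and not in the mitochondrial one. These are counts without a test. No such share was computed for neighbouring tRNA genes in classified sequence. The plastid order, with more genes, also offers more pairs to match. The origin of these tRNA genes was not tested.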
